A study of Mus musculus with 18 samples.

Results

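The 8 genes followed here, in cultured mouse ovarian follicles, belong to the hyaluronan-rich matrix of the cumulus and to its prostaglandin signal: Has2, Tnfaip6, Ptx3, Vcan, Cd44, Cemip, Ptgs2 and Ptger2. The members are all 23 probe sets to which the array annotation gives 1 of these 8 symbols alone, of 45037 probe sets other than controls and of 18193 genes so named. Of the 23, 15 passed the filter on low signals, with at least 1 for each of the 8 genes, and 8 did not. Preantral to small antral follicles of C57BL/6NTac mice of 6 to 8 weeks were cultured for 12 or 24 h with recombinant anti-Müllerian hormone (AMH) at 50 or 200 ng/mL or with vehicle, and every medium, vehicle included, held FSH and LH. The 6 groups had 3 arrays each, and for each experiment the follicles of 7 mice were pooled and shared out among the 3 doses, with 3 pools at 24 h and 3 other pools at 12 h. The pools are separate groups of mice, but a value describes whole follicles, in which fewer cells of a type and less RNA per cell cannot be told apart. The values are signal intensities on a linear scale, and differences are given as log2 of signal plus 16.

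As background, the cumulus cells around the oocyte build an expanded matrix after the LH surge. Has2 synthesises its hyaluronan, the TSG-6 protein of Tnfaip6 transfers heavy chains of inter-alpha-inhibitor onto that hyaluronan, pentraxin 3 (Ptx3) and versican (Vcan) hold the network together, and CD44 is a cell surface receptor for it. Prostaglandin E2, made through the cyclooxygenase of Ptgs2, acts on cumulus cells through the EP2 receptor of Ptger2, and mice without either gene have impaired cumulus expansion. CEMIP is known, in humans and mice, for starting the breakdown of hyaluronan. AMH, made by granulosa cells, belongs to the wider TGF-beta family and signals through SMAD1, SMAD5 and SMAD9.

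The replicate 3 array of AMH 50 ng/mL at 12 h is given apart from the others. Its Pearson correlation with the other arrays over probe sets was 0.604 to 0.624, against 0.904 to 0.992 among the other 17 arrays, and the mean over its hybridisation controls was 28532, against 1441 to 3520. The AMH 50 ng/mL group of 12 h therefore rests on 2 pools. The AMH 200 ng/mL array of the same pool had a median correlation of 0.920 with the other arrays and the lowest array median, 18.0. Replicate 3 of 12 h also stood apart in its cell markers: oocyte markers summed to 364 with AMH 200 ng/mL and 290.5 with vehicle, against 1783 to 7831 on the other usable 12 h arrays, and its vehicle array had the highest endothelial sum, 4541. Granulosa cell markers were present, with summed signals of 10382 to 10635 in vehicle cultures at 24 h and 4378 to 8227 at 12 h over 9 probe sets.

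The promoters of the 5 genes with the largest differences by time are shown because these genes lie on 4 chromosomes and 1 of them, Cemip, differed the opposite way. Each window holds 250 bases before and 30 bases from a transcript start given by RefSeq, 5′ to 3′ on the gene's strand, from RefSeq (GRCm38.p6), and 7 of the 8 genes had a window. Capitals mark matches to any of 6 motifs searched on both strands: a TATA box (TATAAA), a short cAMP response element (TGACG), AP-1 (TGANTCA), an E-box (CANNTG), a GC box (GGGCGG) and a GC-rich SMAD1/5 element (GGCGCC). The windows are chr1:150099781-150100060 (+) for Ptgs2, chr2:52037863-52038142 (+) for Tnfaip6, chr3:66219637-66219916 (+) for Ptx3, chr2:102901636-102901915 (-) for Cd44 and chr7:84086476-84086755 (-) for Cemip. The start used lies 4 bases inside the outer end of the annotated gene for Cd44 and 188 bases inside it for Cemip.
Ptgs2: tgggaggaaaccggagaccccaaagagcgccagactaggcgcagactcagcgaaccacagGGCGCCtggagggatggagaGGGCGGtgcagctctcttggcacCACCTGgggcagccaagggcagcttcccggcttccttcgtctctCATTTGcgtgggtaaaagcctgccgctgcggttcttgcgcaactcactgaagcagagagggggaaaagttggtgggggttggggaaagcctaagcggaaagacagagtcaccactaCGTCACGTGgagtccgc
Tnfaip6: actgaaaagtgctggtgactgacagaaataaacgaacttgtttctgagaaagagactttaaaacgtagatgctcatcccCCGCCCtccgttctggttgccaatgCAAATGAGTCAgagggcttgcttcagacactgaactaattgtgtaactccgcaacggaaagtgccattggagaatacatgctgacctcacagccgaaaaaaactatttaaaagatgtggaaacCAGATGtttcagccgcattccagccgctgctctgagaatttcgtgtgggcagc
Ptx3: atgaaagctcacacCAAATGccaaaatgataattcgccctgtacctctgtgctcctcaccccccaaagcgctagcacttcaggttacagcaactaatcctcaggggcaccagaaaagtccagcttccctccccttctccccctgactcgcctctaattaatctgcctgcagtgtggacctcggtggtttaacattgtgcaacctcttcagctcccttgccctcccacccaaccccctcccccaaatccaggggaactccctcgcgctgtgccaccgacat
Cd44: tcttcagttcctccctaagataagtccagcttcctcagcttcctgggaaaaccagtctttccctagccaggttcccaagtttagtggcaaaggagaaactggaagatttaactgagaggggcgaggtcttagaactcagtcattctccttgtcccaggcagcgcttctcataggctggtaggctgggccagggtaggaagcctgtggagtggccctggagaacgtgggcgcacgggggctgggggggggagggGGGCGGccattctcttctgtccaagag
Cemip: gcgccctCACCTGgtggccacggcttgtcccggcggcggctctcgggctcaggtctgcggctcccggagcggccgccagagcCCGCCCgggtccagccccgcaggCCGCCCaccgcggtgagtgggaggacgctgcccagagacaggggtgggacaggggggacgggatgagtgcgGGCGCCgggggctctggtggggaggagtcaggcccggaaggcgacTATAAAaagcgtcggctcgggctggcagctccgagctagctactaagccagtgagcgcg
In the Ptgs2 window the cAMP response element, read on the other strand as CGTCA, overlaps an E-box CACGTG, just after the start, and in the Tnfaip6 window an E-box overlaps the AP-1 match. Only the Cemip window, of the 7 searched, held the TATA box letters, which 13.1% of 32851 windows of the same length held. The cAMP response element was in 1 of the 7 (19.9% of all windows), AP-1 in 1 (7.46%), an E-box in 6 (70.1%), a GC box in 5 (34.7%) and the SMAD1/5 element in 2 (10.9%). These matches are descriptions of letters in a window, not of bound sites.

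The first comparison asked how the genes differed between 24 h and 12 h of culture with FSH and LH but no AMH. The hyaluronan receptor Cd44 was the only one of the 8 genes to pass the test. It was lower at 24 h, with a ratio of 24 h to 12 h of 0.304 for signal plus 16. All 3 of its tested probe sets passed, so 3 of 15 member probe sets were called, against 1.29% of all 22518 probe sets tested (0.417% lower and 0.875% higher). The differences of Ptx3, Ptgs2, Tnfaip6 and Has2 were also negative and that of Cemip was positive, without passing after adjustment over all probe sets. Of the 15, 12 had a negative difference, with a median of -0.95, against a median of 0.02 over all probe sets tested. An unadjusted p under 0.05 was found for 9 of 15, against 18.6% of all. Of the 15, 11 had means above the filter at both times; Has2 and Ptx3 were above it at 12 h only and both Cemip probe sets at 24 h only, so these 4 passed the filter through that time alone, and counts that include them are descriptions. Probe sets of 1 gene are not independent, and their signals correlated over 17 arrays with r of 0.860 to 0.972.

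**Figure D1:**
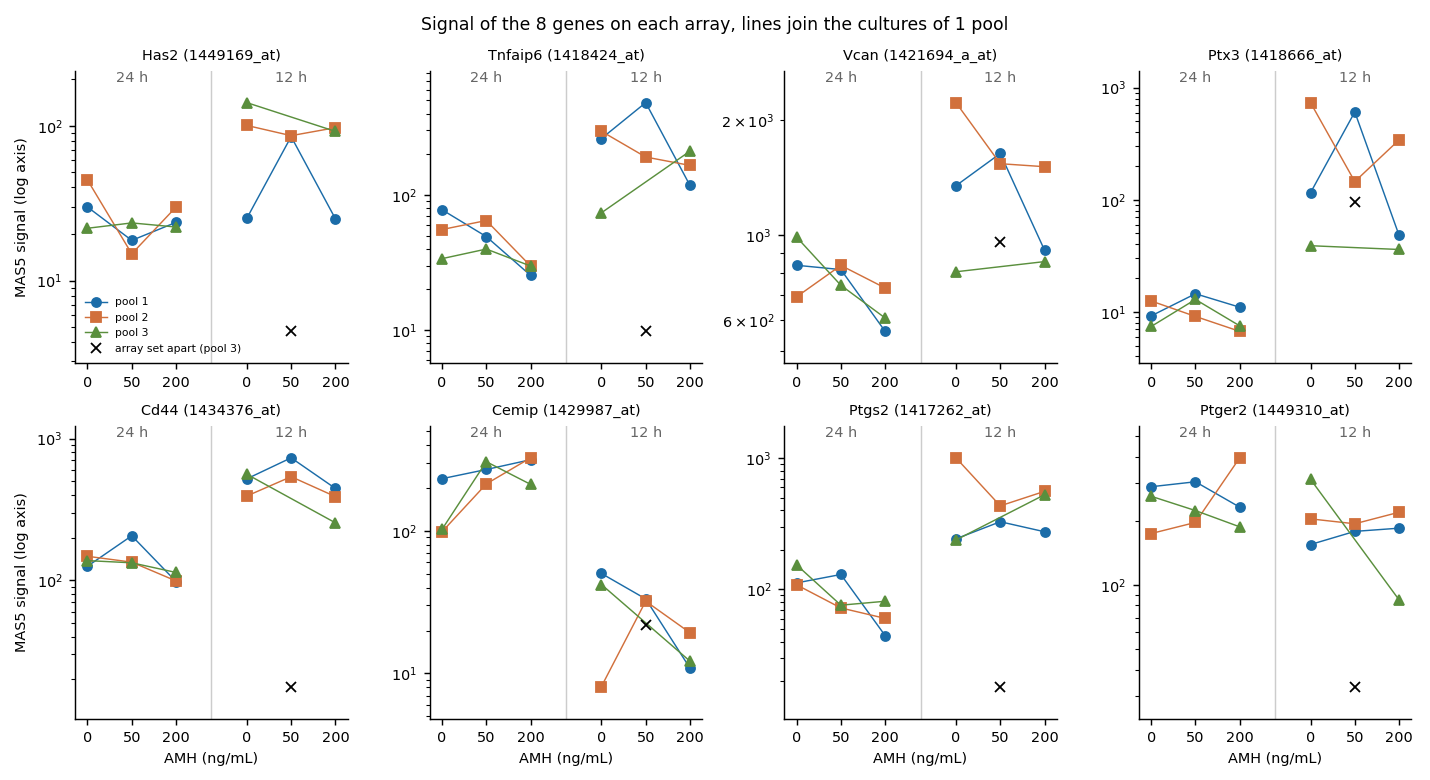
Signal of each gene's probe set (log axis) on every array, with the doses vehicle, 50 and 200 ng/mL within each time, lines joining the cultures of 1 pool and a cross for the 12 h array set apart. Cd44, Ptgs2 and Ptx3 are lower on every 24 h array than on any of the 8 usable 12 h arrays, and Cemip is higher.

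Cd44 (chr2:102811141-102901669, GRCm38.p6) had signals of 126, 148 and 138 in vehicle cultures at 24 h, against 520, 393 and 559 at 12 h. The groups did not overlap, and the 24 h signals lay close together. The log2 difference was -1.72 ± 0.19 (SE, n = 3 and 3, limma adjusted p = 0.0148), and the other Cd44 probe sets gave -1.67 (limma adjusted p = 0.0184) and -1.80 (limma adjusted p = 0.0459). Without replicate 1, 2 or 3 of the 24 h vehicle arrays the limma adjusted p was 0.102, 0.0758 or 0.0885, while the log2 difference stayed between -1.77 and -1.66. The AMH cultures came from the same pools, so they are not independent of the vehicle cultures, though the test did not use them. They had the same order in time. Their signals were 98.0 to 206 on the 6 arrays at 24 h, against 254 to 730 on the 5 arrays at 12 h.

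Has2, the hyaluronan synthase (chr15:56665627-56694546), had signals of 29.9, 44.7 and 21.8 in vehicle cultures at 24 h, against 25.3, 101 and 141 at 12 h. The groups overlapped, since 1 of the 12 h pools was as low as the 24 h pools. The log2 difference was -0.95 ± 0.46 (SE), with a limma adjusted p of 0.317. It was -1.52 without the 12 h vehicle array at 25.3 and -0.56 without the one at 141. The same 12 h pool was low with AMH 200 ng/mL (25.1) but not with AMH 50 ng/mL (85.3).

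Tnfaip6 (chr2:52038113-52056681) had signals of 77.7, 55.5 and 33.8 in vehicle cultures at 24 h, against 261, 296 and 73.8 at 12 h. One 12 h pool lay within the range of 24 h, and the log2 difference was -1.51 ± 0.47 (SE, limma adjusted p = 0.145). Without that 12 h vehicle array, of replicate 3, it was -2.08 (limma adjusted p = 0.0140). That array had the 12 h vehicle signal nearest to those of 24 h, so leaving it out enlarges the difference by itself.

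Ptx3 (chr3:66219887-66225806) was the most variable of the 8 genes at 12 h. Its vehicle signals were 9.2, 12.5 and 7.4 at 24 h, against 116, 735 and 38.9 at 12 h. The 24 h signals all lay below 27.4, the signal that equals the filter, so the log2 difference of -2.78 ± 0.78 (SE, limma adjusted p = 0.118) depends on the constant added. It was -3.85 with 1 added and -1.92 with 50 added. It was -1.73 without the 12 h vehicle array at 735, and -3.62 with a limma adjusted p of 0.0221 without the one at 38.9.

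Vcan (chr13:89655309-89743027), which encodes a large hyaluronan-binding proteoglycan, had signals of 836, 691 and 990 in vehicle cultures at 24 h, against 1349, 2223 and 804 at 12 h. The groups overlapped. The log2 difference was -0.68 ± 0.32 (SE, limma adjusted p = 0.309), and its other 3 tested probe sets gave -0.64 to -0.41. Without the 12 h vehicle array at 2223 it was -0.32, and without the one at 804 it was -1.05 (limma adjusted p = 0.0559).

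Cemip (chr7:83932857-84086693) had signals of 232, 98.4 and 102 in vehicle cultures at 24 h, against 50.2, 8.1 and 42.0 at 12 h. The groups did not overlap, and the log2 difference was 1.73 ± 0.44 (SE, limma adjusted p = 0.0955). Its second probe set gave 1.01 (limma adjusted p = 0.187). The order in time was the same in AMH cultures of the same pools. These had 211 to 324 on 6 arrays at 24 h, against 10.9 to 33.3 on 5 arrays at 12 h. The other genes of the 8 that make, bind or sense hyaluronan had negative differences.

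Ptgs2 (chr1:150100031-150108234) had signals of 112, 109 and 154 in vehicle cultures at 24 h, against 243, 1008 and 238 at 12 h. The groups did not overlap, though 1 of the 12 h pools was far above the others. The log2 difference was -1.55 ± 0.49 (SE, limma adjusted p = 0.151), the second probe set gave -2.02 (limma adjusted p = 0.0986), and without the 12 h vehicle array at 1008 the value was -0.88. Ptger2 (chr14:44988111-45003820), the receptor for the product of this pathway, had signals of 289, 174 and 261 at 24 h, against 155, 204 and 313 at 12 h. Its groups overlapped, and the log2 difference was 0.13 with a 95% interval of -0.52 to 0.77. Without the replicate 3 vehicle array of 12 h, which stood apart in its cell markers, the log2 differences were -1.62 for Cd44 (limma adjusted p = 0.0106), 1.91 for Cemip, -1.89 for Ptgs2 and 0.38 for Ptger2.

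**Figure D2:**
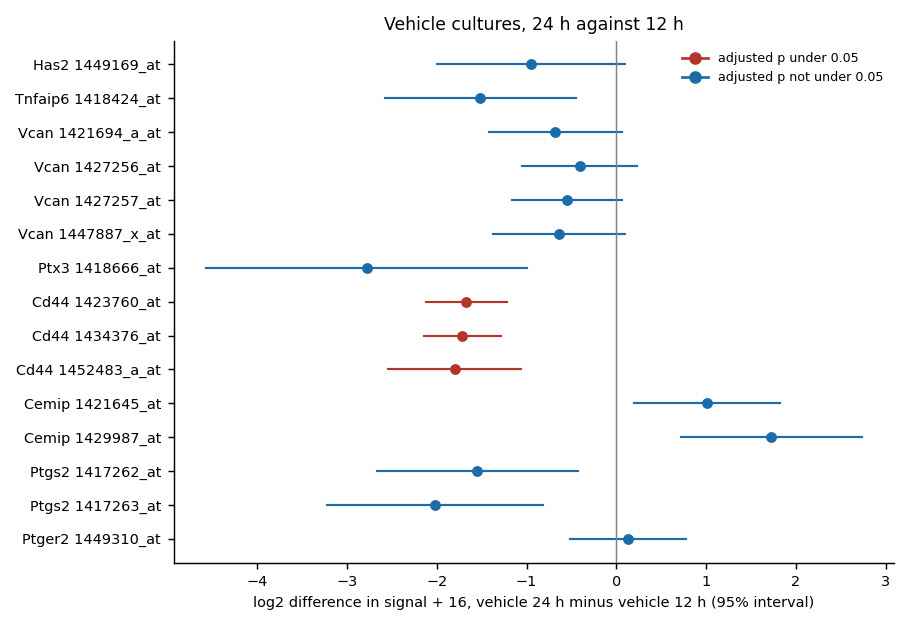
Log2 difference of vehicle cultures at 24 h minus 12 h with its 95% interval for the 15 tested probe sets. The 3 Cd44 probe sets, in red, have adjusted p under 0.05; of the others, 9 lie left of 0 and 3, both Cemip probe sets and Ptger2, right of it.

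The vehicle groups did not overlap for 8 of the 15 probe sets, against 25.0% of all tested. Of the 8, 6 were lower at 24 h, 3 of Cd44, 2 of Ptgs2 and 1 of Ptx3, against 11.4% of all probe sets tested, and 2 were higher, both of Cemip, against 13.6%. When all 9 arrays of 24 h were set against all 8 usable arrays of 12 h, the same 6 were lower throughout (2.91% of all) and the same 2 higher throughout (5.11%). These arrays include 3 doses of each pool, so they are not independent replicates. The Ptx3 probe set and both Cemip probe sets passed the filter only through the time at which they were higher. The counts that include them are therefore descriptions.

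With the doses of each pool averaged, which treats AMH as without effect on these genes and was chosen after seeing the data, more members passed the test of 24 h against 12 h (3 pools each, limma). Ptgs2 had a log2 difference of -1.99 (adjusted p = 0.00617) and Tnfaip6 of -1.80 (adjusted p = 0.00663). Has2, Ptx3 and Cemip also passed, but each had a mean below the filter at 1 of the times. They entered the test only through the time at which they were higher, so their passing is a description. The sizes of their differences also depend on the constant added. With this averaging 2597 probe sets were called in all, against 291 with vehicle arrays alone.

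Markers of other cell types also differed between the times. Of 7 tested endothelial markers, 7 had a negative difference (median -0.78), and their summed signal was 719 to 1717 in vehicle cultures at 24 h, against 1200 to 4541 at 12 h. Granulosa markers had a positive difference for 8 of 9 (median 0.73), and 2 passed the test, Foxl2 and Fshr, both higher. Fshr had vehicle signals of 213, 78.0 and 155 at 24 h, against 37.4, 7.2 and 2.9 at 12 h. Most of its usable 12 h signals lay below the signal that equals the filter. It entered the test through 24 h, so its passing is a description. Leukocyte markers had a positive difference for 7 of 9 (median 0.32), with sums of 1134 to 2640 at 24 h against 1406 to 2083 at 12 h. The leukocyte marker that passed, Csf1r, went the other way, with signals of 86.4, 90.3 and 246 at 24 h against 526, 1077 and 528 at 12 h (log2 difference -2.27, limma adjusted p = 0.0459).

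Surface epithelium markers had a positive difference for 7 of 10 (median 0.49), of which Upk3b passed, with sums of 4503 to 7979 at 24 h against 4140 to 6766 at 12 h. Theca markers were higher for 5 of 5 (median 0.40), with sums of 8095 to 8870.0 against 3668 to 8418. The fitted differences of oocyte markers were positive for 7 of 8 (median 0.21), with sums of 1248, 5682 and 2700 against 3831, 7831 and 290.5. The 290.5 came from the replicate 3 array of 12 h, which stood apart in its cell markers. Zp3, for example, had 158, 1172 and 625 at 24 h, against 846, 1786 and 41.9 at 12 h. Stroma markers were higher for 5 of 8 (median 0.10), with sums of 4882 to 8843 against 3874 to 10233. No listed marker with a probe set was at 0, but the leukocyte markers Ptprc, C1qa and Adgre1, the endothelial marker Tie1, the theca marker Gli1 and the oocyte markers Ddx4 and Sohlh1 lay below the filter. The part of these markers in the differences of the 8 genes was not tested.

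The AMH comparisons asked whether the hormone changed the genes within pools at either time. No member, and no probe set at all, passed the adjusted threshold in any AMH comparison (0 of 22518, 0.0% in each, limma). The differences below are therefore measured values that did not pass the test. At 24 h with 200 ng/mL the main probe set of Cemip was higher than vehicle in each of the 3 pools, as were 15.7% of all. The second Cemip probe set was not higher in replicate 1 (70.4 against 71.0). Ptgs2, Tnfaip6 and Cd44 were lower than vehicle in each pool, as were 11.9% of all. Cd44 was lower with 200 than with 50 ng/mL in each pool at 24 h, as were 11.5% of all.

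**Figure D3:**
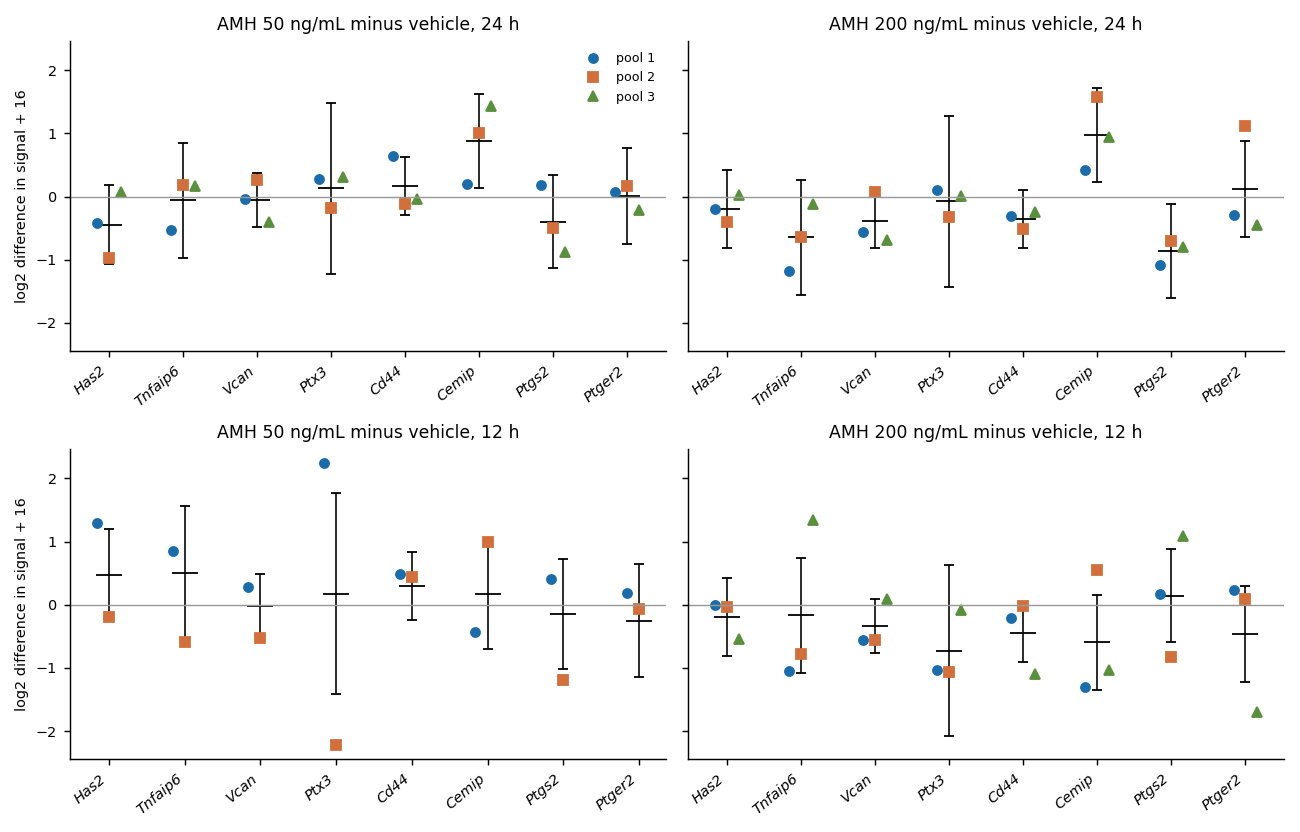
Log2 difference from vehicle within each pool for the 8 genes, at 24 h and 12 h and at both doses, with 1 point per pool, the fitted difference and its 95% interval as bars, and the array set apart left out. At 24 h and 200 ng/mL the 3 points of Cemip lie above 0 and those of Ptgs2, Tnfaip6 and Cd44 below it.

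Ptgs2 had signals of 44.5, 60.2 and 81.3 in the 3 pools with AMH 200 ng/mL at 24 h, against 112, 109 and 154 with vehicle. It was lower than vehicle in each of the 3 pools, as were 11.9% of all probe sets tested. The log2 difference was -0.87 ± 0.34 (SE, 95% interval -1.61 to -0.13, unadjusted p = 0.0253 and adjusted p over 0.99 by limma). The second probe set gave -0.42. With AMH 50 ng/mL the signals were 130, 72.3 and 75.9, of which 1 was above its vehicle culture, and the log2 difference was -0.40. At 12 h with AMH 200 ng/mL Ptgs2 had 275.5, 559.8 and 527.2, against 243, 1008 and 238 with vehicle. It was higher in 2 of 3 pools there, and the log2 difference was 0.14, or -0.33 without the array of replicate 3.

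Cemip had signals of 315, 324 and 211 with AMH 200 ng/mL at 24 h, against 232, 98.4 and 102 with vehicle. The pools differed by 0.42, 1.57 and 0.94, and the fitted log2 difference was 0.98 ± 0.35 (SE, 95% interval 0.23 to 1.72, unadjusted p = 0.0144 by limma). With AMH 50 ng/mL the signals were 269, 213 and 305 and the log2 difference was 0.88 ± 0.35 (SE, unadjusted p = 0.0245 by limma), and both comparisons share the vehicle arrays. The difference between the doses was 0.10, with an interval of -0.65 to 0.84. Its second probe set gave 0.51 at 200 ng/mL and 0.70 at 50 ng/mL.

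At 12 h Cemip had signals of 10.9, 19.3 and 12.2 with AMH 200 ng/mL, against 50.2, 8.1 and 42.0 with vehicle, lower in 2 of 3 pools. The log2 difference there was -0.60, and the effect of AMH 200 ng/mL at 24 h minus that at 12 h was 1.57 ± 0.49 (SE, unadjusted p = 0.00682, adjusted p = 0.627 by limma), against 0.50 for the second probe set. The main probe set was the only 1 of the 15 with an unadjusted p under 0.05 in that comparison, against 7.19% of all probe sets tested, and for the effect of AMH 50 ng/mL it was 0 of 15, against 3.24% of all. The 12 h signals of Cemip with AMH lay close to or below the signal that equals the filter.

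Tnfaip6 had signals of 25.4, 29.8 and 29.8 with AMH 200 ng/mL at 24 h, against 77.7, 55.5 and 33.8 with vehicle. It was lower than vehicle in each of the 3 pools, as were 11.9% of all probe sets tested. The log2 difference was -0.65 ± 0.42 (SE, 95% interval -1.56 to 0.26), or -0.38 without replicate 1. With AMH 50 ng/mL they were 49.2, 64.7 and 39.8, and the log2 difference was -0.06. At 12 h the pools disagreed, with differences of -1.05, -0.78 and 1.34 at 200 ng/mL, and the fitted value was -0.17, or -0.92 without replicate 3.

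Cd44 had signals of 98.0, 98.9 and 114 with AMH 200 ng/mL at 24 h, against 206, 134 and 133 with AMH 50 ng/mL. The log2 difference between these doses was -0.52 ± 0.21 (SE, 95% interval -0.98 to -0.06, unadjusted p = 0.0308 by limma), and it was -0.29 without replicate 1. It was -0.36 for 200 ng/mL against vehicle. At 12 h Cd44 had 444, 389 and 254 with AMH 200 ng/mL, against 520, 393 and 559 with vehicle, a log2 difference of -0.44 in which replicate 3 gave -1.09. Without that array it was -0.12, and the other probe sets gave -0.15 and 0.12. With AMH 50 ng/mL at 12 h it was 730 and 538 in the 2 pools used, higher than vehicle in both, with a log2 difference of 0.30. On the array set apart the signal was 17.8. Averaged over both times, AMH 200 ng/mL gave -0.40 ± 0.15 (SE, unadjusted p = 0.0202, adjusted p = 0.951 by limma). The other probe sets gave -0.27 and -0.03, and without the AMH 200 ng/mL array of 12 h replicate 3 the value was -0.24.

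Vcan was the most abundant signal among the 8 genes and had 562, 729 and 609 with AMH 200 ng/mL at 24 h, against 836, 691 and 990 with vehicle. It was lower in 2 of 3 pools, with a log2 difference of -0.39, which was -0.62 without replicate 2 and -0.24 without replicate 3. At 12 h it had 916, 1512 and 854 with AMH 200 ng/mL, against 1349, 2223 and 804 with vehicle, also lower in 2 of 3 pools. Averaged over both times the log2 difference was -0.36 ± 0.14 (SE, unadjusted p = 0.0215 by limma). Signals of different probe sets are not levels on 1 scale, so this order among genes is only one of signals.

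Ptx3 at 12 h had 48.2, 342 and 36.0 with AMH 200 ng/mL, against 116, 735 and 38.9 with vehicle, lower in each pool, with log2 differences of -1.03, -1.07 and -0.08. With AMH 50 ng/mL the 2 pools went opposite ways, by 2.24 and -2.22, with signals of 607 and 145. At 24 h all Ptx3 signals lay between 6.7 and 14.5 at every dose. Has2 had 18.2, 14.9 and 23.6 with AMH 50 ng/mL at 24 h, against 29.9, 44.7 and 21.8 with vehicle, a log2 difference of -0.44 with an interval of -1.06 to 0.18. With AMH 200 ng/mL the Has2 difference was -0.20 at both times. Ptger2 had 232, 395 and 187 with AMH 200 ng/mL at 24 h, against 289, 174 and 261 with vehicle, higher in 1 pool and lower in the others. At 12 h its replicate 3 pool gave -1.70 at that dose, on the array with the lowest median, and the fitted value was -0.46, or 0.16 without that array.

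Counts over the 15 tested probe sets are set beside the same counts over all. In AMH 200 ng/mL against vehicle at 24 h, 7 were lower in every pool (11.9% of all) and 1 higher (15.7% of all), with a median of -0.36 against 0.01 over all, and 3 had an unadjusted p under 0.05 (1.68% of all). In AMH 200 against 50 ng/mL at 24 h, 9 were lower in every pool (11.5% of all) and 0 higher (17.4% of all), the median was -0.26 against 0.02 over all, and 2 had an unadjusted p under 0.05 (4.16% of all). Those 9 are of 4 genes: 4 of Vcan, 3 of Cd44 and 1 each of Tnfaip6 and Ptx3, and the Ptx3 signals at 24 h all lay below the filter, where they give no order. In AMH 50 ng/mL against vehicle at 24 h, 2 were higher in every pool (10.8% of all), both of Cemip, 0 were lower (12.2% of all), and 2 had an unadjusted p under 0.05 (2.69% of all). These 3 comparisons share arrays.

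At 12 h, 6 of 15 were lower with AMH 200 ng/mL than with vehicle in every pool (14.4% of all) and 0 higher (8.76% of all), and 0 had an unadjusted p under 0.05, against 11.4% of all. With AMH 50 ng/mL, 3 were higher in both pools, all of Cd44 (26.1% of all), 0 were lower in both (28.6% of all), and 2 had an unadjusted p under 0.05 (5.69% of all). Over both times, 13 of 15 had a negative difference with AMH 200 ng/mL, with a median of -0.27 against -0.03 over all, and 4 had an unadjusted p under 0.05 (3.39% of all), 2 of Cd44 and 2 of Vcan.

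Markers of other cells differed with AMH at 24 h as well. The 9 tested leukocyte markers all had a negative difference with 200 ng/mL (median -0.94) and with 50 ng/mL (median -0.71), and their summed signal was 517 to 1387 with 200 ng/mL and 627 to 1532 with 50 ng/mL, against 1134 to 2640 with vehicle. The 10 surface epithelium markers also all had a negative difference at both doses (medians -0.71 and -0.69), with sums of 3285 to 4169.5 with 200 ng/mL and 3538 to 4364 with 50 ng/mL, against 4503 to 7979 with vehicle. With 50 ng/mL, oocyte markers were lower for 8 of 8 (median -1.01) and stroma markers higher for 8 of 8 (median 0.47). Between 200 and 50 ng/mL, Vcan and Cd44 were lower in every pool. The fitted differences of stroma markers were negative for 8 of 8 (median -0.55), with sums of 4098 to 6890.5 against 5664 to 10426. In replicate 2, however, the stroma sum was higher with 200 ng/mL (6890.5 against 5664). Theca markers were lower for 5 of 5 (median -0.26), with sums of 6641 to 8342 against 7342 to 11676. In replicate 3 the theca sum was not lower (8342 against 8316). Oocyte markers were higher for 8 of 8 (median 1.05), with sums of 1119 to 5074 against 679 to 3305.

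At 12 h, the fitted differences of surface epithelium markers were positive for 10 of 10 with 200 ng/mL (median 0.56) and with 50 ng/mL (median 0.44). Their sums were 5316 to 15377 and 4335 to 7305, against 4140 to 6766 with vehicle. The 15377 came from replicate 3, the array with the lowest median, and the other 200 ng/mL arrays had 5619.5 and 5316. In replicate 2 the sum with 200 ng/mL was below vehicle (5316 against 6766). Replicate 3 enters the 50 ng/mL fit only through its other doses, which include the array with 15377. In replicates 1 and 2 the sums with 50 ng/mL were 4335 and 7305, against 4140 and 6766 with vehicle. Single markers went both ways there: Muc16 had 5.8 against 13.5 in replicate 1 and 30.8 against 17.1 in replicate 2. Endothelial markers were lower for 7 of 7 with 200 ng/mL (median -0.54), with sums of 1183 to 1876 against 1200 to 4541 with vehicle. The 4541 came from the replicate 3 vehicle array, against 1412 with 200 ng/mL in that pool. In replicate 2 the endothelial sum was higher with 200 ng/mL (1876 against 1200). With 50 ng/mL oocyte markers were lower for 8 of 8 (median -0.91), and stroma markers for 7 of 8 (median -0.56). None of the listed markers passed the adjusted threshold in an AMH comparison. Cd44 is also expressed by leukocytes, and the part of these markers in the AMH differences was not tested.

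Other genes of hyaluronan and prostaglandin metabolism were listed by role, and 26 of 49 listed genes had a tested probe set. None passed the adjusted threshold in any comparison (limma), and 13 of 26 had an unadjusted p under 0.05 between the times, against 18.6% of all probe sets. Between 24 h and 12 h in vehicle cultures 18 had a negative difference and 8 a positive one, with a median of -0.30. All 5 genes of hyaluronan synthesis and precursors had negative differences, among them Has1, a second hyaluronan synthase (-0.71, limma adjusted p = 0.114), and Ugdh, which makes UDP-glucuronate (-0.63, limma adjusted p = 0.133). Among binding genes, Hmmr, a hyaluronan receptor also used in mitosis, had 60.3, 70.9 and 52.6 at 24 h, against 186, 225 and 101 at 12 h, a log2 difference of -1.21 (limma adjusted p = 0.0812). Lyve1, a hyaluronan receptor of lymphatic endothelium, gave -0.97 (limma adjusted p = 0.0858). Its vehicle signals at 24 h, 20.9, 16.8 and 24.9, lay below the signal that equals the filter, so this size depends on the constant added. The 3 versican proteases tested, Adamts4 (-1.14), Adamts1 (-0.98) and Adamts9 (-0.45), all had negative differences.

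On the prostaglandin side the signs were mixed. Hpgd, which inactivates prostaglandins, had signals of 334, 141 and 312 in vehicle cultures at 24 h, against 86.3, 51.1 and 33.7 at 12 h. Its groups did not overlap, and the log2 difference of 1.91 ± 0.37 (SE, limma adjusted p = 0.0523) had the smallest p of the list. Ptgds, a prostaglandin D synthase, gave 1.44 and Ptges, a prostaglandin E synthase, 0.13, while the EP4 receptor gene Ptger4 gave -0.46.

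**Figure D4:**
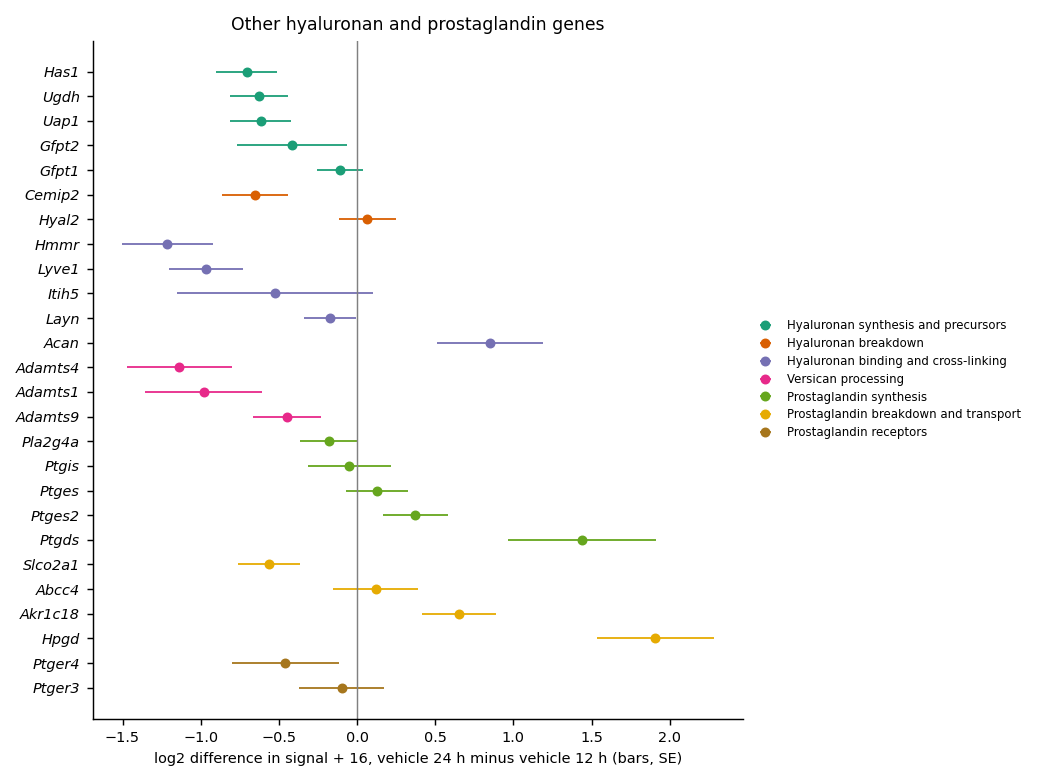
Log2 difference of vehicle cultures at 24 h minus 12 h for the 26 tested genes of the wider list, ordered by role, with bars of 1 SE. Hpgd lies farthest right at 1.91 and Hmmr farthest left at -1.21, and none had an adjusted p under 0.05.

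With AMH 200 ng/mL at 24 h, the gene of the list with the smallest p was Akr1c18, an enzyme that inactivates progesterone and reduces prostaglandins. It had 10.7, 29.4 and 9.9, against 48.3, 56.4 and 71.9 with vehicle, lower in each pool. Its log2 difference was -1.24 ± 0.30 (SE, unadjusted p = 0.00117 by limma), and against AMH 50 ng/mL it was -1.26. At 12 h with 200 ng/mL it went the other way, with 74.9, 64.6 and 40.6 against 25.0, 26.9 and 44.0 with vehicle, higher in 2 of 3 pools (0.66, unadjusted p = 0.0454 by limma). Over both times it was -0.29. Of these signals, 10.7, 9.9, 25.0 and 26.9 lay below the signal that equals the filter, so the sizes depend on the constant added. Hmmr gave -0.46 at 200 ng/mL and -0.45 at 50 ng/mL at 24 h. At 12 h with 200 ng/mL, the largest difference among the 4 genes of smallest p was that of Gfpt2, of the hexosamine pathway, at -0.99.

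To show how the genes varied together within their times and pools, each signal was centred on the mean of its pool and correlated over the 17 arrays. The values are a description: arrays of 1 pool share that mean, and dose and array quality vary with them. Tnfaip6 and Vcan correlated at 0.740, Has2 and Ptx3 at 0.677, Ptgs2 and Vcan at 0.643, Tnfaip6 and Ptx3 at 0.642 and Ptgs2 and Tnfaip6 at 0.612. Ptgs2 and Cemip correlated at -0.742, and Tnfaip6 and Ptger2 at -0.474.

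**Figure D5:**
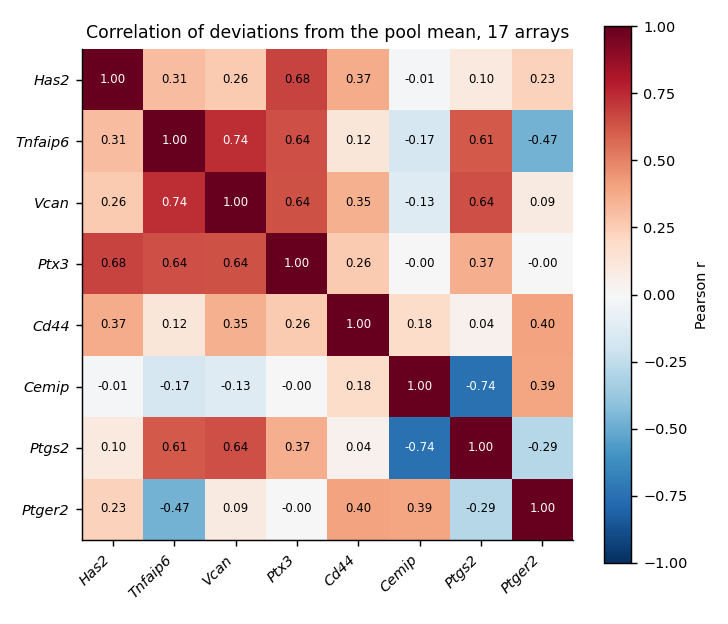
Pearson correlation of pool-centred log2 signals between the 8 genes over 17 arrays. The matrix genes Tnfaip6, Vcan and Ptx3 have r of 0.64 to 0.74 with each other, and Ptgs2 and Cemip have the lowest r at -0.74.

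Among all tested probe sets with 1 symbol, those most like each gene by the same measure were Aldh1a3 (r = 0.792) and Nell1 (0.783) for Has2, Mical2 (0.858) and Btc (0.853), an EGF-like growth factor, for Ptgs2, and Zdhhc12 (0.899) and Prr15 (0.882) for Tnfaip6. For Ptx3 they were Atg9a (0.913) and Jam2 (0.910), for Cd44 Timp1 (0.911) and Rhob (0.902), and for Vcan Stc2 (0.882) and Atp7b (0.850). For Cemip they were Pcgf3 (0.910) and Pyroxd2 (0.881), and for Ptger2 Sugp2 (0.930) and Rab36 (0.929).

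The 8 probe sets that did not pass the filter were 4 of Vcan and 1 each of Has2, Ptx3, Cd44 and Cemip. Their signals on the 17 arrays reached at most 32.0, for the second probe set of Has2, and at most 27.0 for those of Vcan. On the array set apart the main probe sets had 4.7 for Has2, 9.8 for Tnfaip6, 95.3 for Ptx3, 959 for Vcan, 17.8 for Cd44, 21.8 for Cemip, 18.2 for Ptgs2 and 33.3 for Ptger2. The AMH 50 ng/mL arrays of the other 12 h pools had 85.3 and 86.5 for Has2 and 328 and 434 for Ptgs2.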

How the data were processed

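Per the labels' protocols, RNA of each follicle culture was amplified from 5 ng and hybridised to 1 Affymetrix Mouse Genome 430 2.0 array. The deposited values are signal intensities on a linear scale, computed by the authors with MAS5 per the submitters' processing notes (version and settings not given in the sources used here); the 2% trimmed mean was 150 on each array. They were used as deposited, without further normalization, as log2 of signal plus 16. The table holds 45101 probe sets, 64 of them controls that were left out, and the 22518 of 45037 with a mean above the 50th percentile (a signal of 27.4) were tested. The annotation gave 1 symbol to 34945, several to 932 and none to 9160.

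limma 3.58.1 in R 4.3.3 (lmFit, eBayes with an intensity trend) was fitted over 17 arrays with the pool as a block (7 residual degrees of freedom), and over the 6 vehicle arrays, with no block, for time (4 residual degrees of freedom). The pairing within pools comes from the labels; same-pool arrays had a median correlation of deviations of 0.250, against -0.128 between pools. In the AMH 50 ng/mL comparison of 12 h replicate 3 enters only through the other doses, so a fitted value is not the mean of 2 pool differences. Tests were two-sided, with Benjamini-Hochberg adjustment over all probe sets tested and a threshold of 0.05. The fits were tested on simulated data.

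The members and gene lists were chosen with earlier results of these data known. The tested probe set of highest mean stands for its gene, the 4 listed pathway genes of smallest p per comparison could be named, and likeness took 3 genes per member; other genes named were chosen after their values were seen. The descriptions of the 12 h AMH samples give 24 h, while their titles and sources give 12 h, which was used. Alternatives changed the arrays, block, pseudocount (1 or 50), normalization (quantile), filter and probe set. The plots used matplotlib 3.10.9 under python 3.11.15. Some genes of these pathways were not analysed here.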

Additional observations from a re-analysis of the deposited data

Results flagged for a closer look

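On the array set apart, AMH 50 ng/mL at 12 h in replicate 3, which was left out of the comparisons, 7 member probe sets had a signal above the highest of the 6 vehicle arrays. Only 1 of the 7 had passed the filter on low signals, the second probe set of Cemip, with 125.8 (highest vehicle signal 71.0). The low probe set of Ptx3 had 69.1 (15.6), that of Cd44 45.4 (4.9), that of Cemip 22.0 (8.4), and 3 low probe sets of Vcan had 28.7 (14.2), 25.8 (4.6) and 14.2 (4.6). The main probe sets of Has2, Tnfaip6, Cd44, Ptgs2 and Ptger2 were instead lower on that array than on any vehicle array.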

How the results depend on the processing

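The number of arrays and the low signals of Ptx3, Has2 and Cemip limit the precision. Over the single genes, 635 of 700 alternative values kept their direction and their side of the threshold, 19 newly passed, 3 no longer passed and 43 had the opposite sign, all 43 of values that passed no test; the causes were not tested. The 291 calls between the times became 60 with no filter, 154 with a pseudocount of 1 and 676 with a shared spread over 17 arrays. With the replicate number as a block there were 642, though samples of the 2 times share only a number. Cemip (adjusted p = 0.0322) and Tnfaip6 (adjusted p = 0.0428) passed there by limma, but Cemip had entered the test through 24 h alone. The calls became 884 from the AMH 200 ng/mL arrays, 1711 from the AMH 50 ng/mL arrays and 2597 from pool means, all chosen after seeing the data. Leaving out 1 vehicle array gave 0 to 531 calls, with 35 and 531 without 12 h replicates 2 and 3, and 1, 0 and 0 without 24 h replicates 1, 2 and 3; the 3 lost calls of single genes are those of Cd44 given above. Of the AMH comparisons, which had 0 calls, AMH 200 ng/mL at 12 h had 0 to 242, AMH 50 ng/mL at 12 h 0 to 4 and the AMH 50 ng/mL effect between times 0 to 1 with a pool left out, and AMH 50 ng/mL at 24 h had 1 with the 24 h arrays only. Dropping the replicate block for the pools gave no call in any AMH comparison; in it the Vcan difference for AMH 50 ng/mL at 12 h became 0.24.

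For AMH 50 ng/mL at 12 h, all 18 arrays gave Cd44 -1.06, Has2 -0.61, Tnfaip6 -0.52, Cemip -0.015 and Vcan 0.00048. Other probe sets gave 0.14, 0.14 and 0.17 for Vcan and -0.13 for Cemip there, 0.12 for Cd44 and 0.0099 for Cemip with AMH 200 ng/mL at 12 h, -0.029 for Cd44 with AMH 50 ng/mL at 24 h, and -0.19 for Cemip in AMH 200 against 50 ng/mL. Quantile normalization gave 0.0068 for Tnfaip6 with AMH 50 ng/mL at 24 h. Also leaving out the AMH 200 ng/mL array of 12 h pool 3, chosen after seeing the data, gave Ptger2 0.16 with AMH 200 ng/mL at 12 h, 0.14 for the mean of both times and 0.058 with AMH 50 ng/mL at 12 h, and Ptgs2 -0.33 with AMH 200 ng/mL at 12 h. With 1 pool left out, the following ranges included 0. For AMH 50 ng/mL at 12 h they were Ptx3 -1.97 to 2.48, Tnfaip6 -0.063 to 1.44, Has2 -0.31 to 1.16, Ptgs2 -0.71 to 0.64, Cemip -0.36 to 0.60, Vcan -0.37 to 0.44 and Ptger2 -0.52 to 0.058. For AMH 200 ng/mL at 12 h they were Tnfaip6 -0.92 to 0.28, Ptgs2 -0.33 to 0.63 and Ptger2 -0.80 to 0.16. For AMH 50 ng/mL at 24 h they were Cd44 -0.084 to 0.30, Tnfaip6 -0.18 to 0.17, Vcan -0.22 to 0.12 and Ptger2 -0.068 to 0.12. For AMH 200 ng/mL at 24 h they were Ptger2 -0.37 to 0.41 and Ptx3 -0.16 to 0.056, and against AMH 50 ng/mL Cemip -0.14 to 0.39 and Ptger2 -0.30 to 0.36. For AMH 200 ng/mL over both times they were Cemip -0.25 to 0.51 and Ptger2 -0.55 to 0.29, and between the times Ptger2 ranged from -0.094 to 0.38 with 1 vehicle array left out.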
